A study of Homo sapiens with 3 samples.

Results

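The 10 genes described here encode the cadherins, armadillo proteins and plakin of 2 kinds of cell-cell junction, the adherens junction and the desmosome. They were chosen by name: CDH1, CDH3, DSP, DSG2, DSG3, DSC2, DSC3, JUP, PKP1 and PKP3. All 10 were found among the 29402 genes with a single symbol on the array, by 11 probe sets. Of the 10, 9 lay above the mean of the negative control probes on every array, and PKP1 lay below it on every array.

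Expression was measured with Affymetrix Human Gene 2.0 ST arrays in SAS cells, a squamous carcinoma line from the human tongue. Of 3 arrays, 2 came from cells treated with siRNA against ARID1A, which encodes a DNA-binding component of SWI/SNF chromatin remodellers, and 1 from cells labelled mock. The siRNA arrays are called array 108 and array 109 after the numbers in their titles. The design text describes transfection of the siRNAs with Lipofectamine RNAiMAX. The labels give neither the siRNA sequences nor the time after transfection. They do not say whether 108 and 109 stand for different siRNAs or for separate cultures, and p-values then measure only the spread between these samples, which may be technical. The title of the mock array reads SAS NC, and whether those cells received a control siRNA is not stated. SAS cells are a single line, and the mock condition has 1 array and no spread of its own.

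Adherens junctions join neighbouring epithelial cells through classical cadherins, whose tails bind catenins that connect to actin. Desmosomes do so through desmogleins and desmocollins, whose tails bind plakoglobin and plakophilins, and these in turn bind desmoplakin, the link to keratin filaments. In stratified epithelia such as the lining of the mouth, desmosomes give the tissue its resistance to mechanical stress. Loss of E-cadherin is a well-known feature of cells that take on a mesenchymal state.

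Values are log2 expression per gene, normalized by the authors, and a difference of 1 is a doubling. ARID1A was at 5.72 (array 108) and 5.32 (array 109) in siRNA-treated cells, against 6.79 in mock cells. It was lower on both siRNA arrays, by log2 differences of -1.07 and -1.47, in the direction of the labels. The negative control mean lay at log2 4.36 on array 108, 4.65 on array 109 and 4.43 on the mock array. The median log2 value over all probe sets lay between 3.97 and 3.99 on the 3 arrays. The mean shift of 3575 intron control sets from the mock array was -0.098 on array 108 and 0.12 on array 109. Of 20582 genes tested, those with a mean log2 value of at least 3.52, 38.0% had identical values on the 3 arrays. Of 10 squamous epithelial markers, 7 lay above the negative control mean on every array and 0 below it on every array. Markers of other cell types were mostly below that mean on every array: 6 of 8 for fibroblasts, 6 of 8 for leukocytes (PTPRC and CD3E among them), 3 of 4 for endothelium, 5 of 5 for melanocytes and 4 of 5 for heart muscle.

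The junction genes were compared between the siRNA arrays and the mock array to see how their expression differed in cells treated with ARID1A siRNA. DSC2 and DSG3, both desmosomal cadherins, were higher on both siRNA arrays than on the mock array, by 1.56- to 2.12-fold for DSC2 and 1.32- to 2.18-fold for DSG3. CDH1 and, by the average of its probe sets, CDH3 were also higher on both, with smaller differences on array 109. PKP3 was lower on both. DSG2, DSC3 and JUP were higher than in mock on array 108 and lower on array 109. DSP and PKP1 did not differ in value between the 3 arrays. None of the 10 passed the limma test over all genes.

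**Figure D1:**
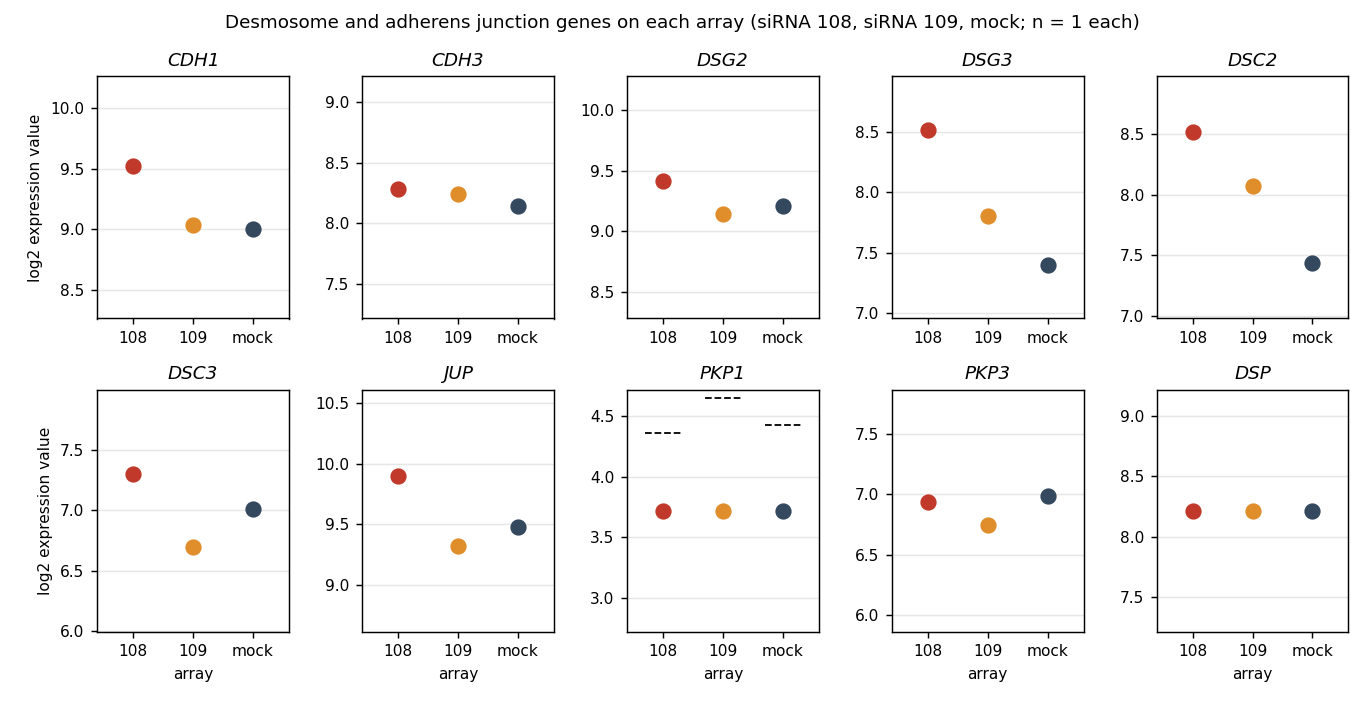
Log2 expression value (vertical axis, the same span of 2 units in every panel) of each of the 10 genes on siRNA array 108, siRNA array 109 and the mock array, 1 point per array (CDH3 is the average of its 2 probe sets). DSC2 and DSG3 have both siRNA points above the mock point, DSP and PKP1 have 3 equal points, and the dashed lines in the PKP1 panel are the negative control mean of each array.

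Among the classical cadherins, CDH1 (E-cadherin, chromosome 16, probe set 16820486) was at log2 9.53 (array 108) and 9.03 (array 109) in siRNA-treated cells, against 9.00 in mock cells. Both siRNA values lay above the mock value, but on array 109 by only 0.03, against 0.53 on array 108. The mean log2 difference of CDH1, over 2 siRNA arrays against 1 mock array, was 0.28 ± 0.25 (limma standard error), with limma adjusted p = 1. CDH1 therefore differed from mock by less than the siRNA arrays differed from each other (0.49).

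CDH3 (P-cadherin), the neighbour of CDH1 on chromosome 16, has 2 probe sets. The first, 16820463, annotated to a curated RefSeq transcript, was at 11.02 (array 108) and 10.81 (array 109) in siRNA-treated cells, against 10.75 in mock cells. The second, 16820483, annotated to a predicted transcript, was at 5.54 (array 108) and 5.67 (array 109) in siRNA-treated cells, against 5.54 in mock cells. The probe sets disagreed on which siRNA array was the higher. Their average, used for the gene in the fit, differed from mock by 0.13 on array 108 and 0.10 on array 109.

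DSG3 and DSC2 had the largest differences of the 10. DSG3 (desmoglein 3, probe set 16851749), the main desmoglein of basal oral keratinocytes and the target of autoantibodies in pemphigus vulgaris, was at log2 8.52 (array 108) and 7.80 (array 109) in siRNA-treated cells, against 7.39 in mock cells. Both siRNA values lay above the single mock value, as they did for 13.1% of all genes tested, and array 108 was the highest of the 3. The mean log2 difference of DSG3 was 0.76 ± 0.32 (limma standard error), with limma adjusted p = 1. It was close to the difference of 0.72 between the siRNA arrays themselves.

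DSC2 (desmocollin 2, probe set 16854486), a desmocollin found in most desmosome-bearing tissues, was at log2 8.52 (array 108) and 8.07 (array 109) in siRNA-treated cells, against 7.44 in mock cells. Again both siRNA values lay above the mock value, with array 108 the higher. The mean log2 difference of DSC2 was 0.86 ± 0.25 (limma standard error), with limma adjusted p = 1. For DSC2 the siRNA arrays differed from each other by less, 0.45. Of the 10 genes DSC2 was the only one with an unadjusted limma p under 0.05, a share that was 1.11% for higher and 1.09% for lower among all genes tested. In the authors' deposited table both genes carry the flag for a ratio of at least 2 on array 108, with ratios of 2.12 for DSC2 and 2.18 for DSG3. Neither carries it on array 109, where the ratios in the authors' deposited table were 1.56 and 1.32, and no other of the 10 genes is marked on either array.

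The other desmosomal cadherins of the 10 did not keep to one side of the mock array. DSG2 (desmoglein 2, probe set 16851768), the most widely expressed desmoglein, was at log2 9.41 (array 108) and 9.14 (array 109) in siRNA-treated cells, against 9.21 in mock cells. The mock value lay between the siRNA values, which were 0.20 above and 0.07 below it. DSC3 (desmocollin 3, probe set 16854466), a desmocollin of the basal layers of stratified epithelia, was at 7.30 (array 108) and 6.69 (array 109) in siRNA-treated cells, against 7.01 in mock cells. Its log2 differences of 0.29 and -0.32 were of similar size in opposite directions, and their mean was -0.02 ± 0.29 (limma standard error). Such an error does not show that DSC3 was equal in the 2 conditions.

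All 7 human desmoglein and desmocollin genes lie in a single cluster on chromosome 18, in the order DSC3, DSC2, DSC1, DSG1, DSG4, DSG3 and DSG2. The 3 in the middle, DSC1, DSG1 and DSG4, which belong to differentiating epidermis and hair, lay below the negative control mean on every array and were not tested. DSC2 and DSG3, the 2 with both siRNA values above mock, are thus not next to each other: the 3 genes below the negative control mean lie between them, and each has a neighbour on its outer side, DSC3 and DSG2, whose log2 differences had opposite signs on the 2 siRNA arrays.

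**Figure D2:**
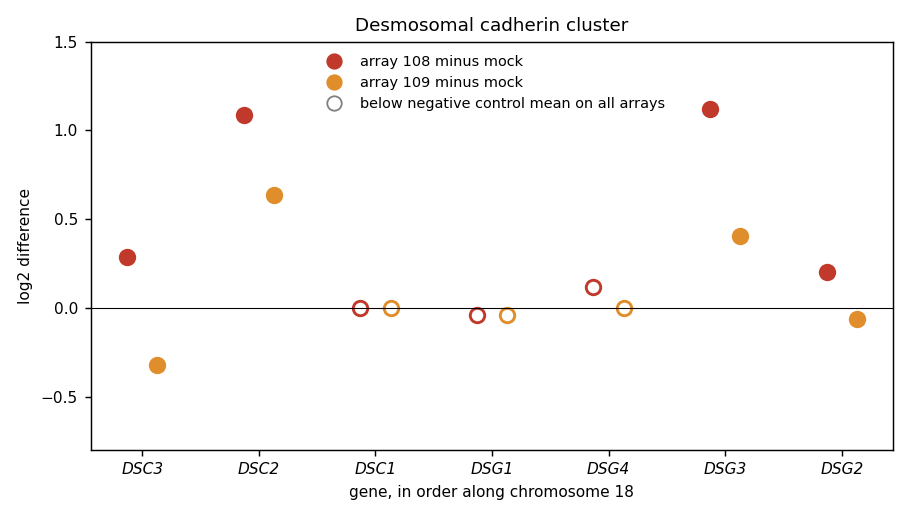
Log2 difference from the mock array (vertical axis) on array 108 and array 109 for the 7 desmosomal cadherin genes in their order along chromosome 18 (horizontal axis, not to scale), 1 point per siRNA array. Filled points are genes above the negative control mean on all 3 arrays; DSC2 and DSG3 have both points above 0.4, DSC3 and DSG2 have 1 point on each side of 0, and the open points of DSC1, DSG1 and DSG4 lie near 0.

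The promoters of the 4 detected cluster genes are shown so that the pair with both siRNA values above mock can be set beside the pair without. Each runs from 250 bases before to 50 bases after a transcription start, 5′ to 3′ on the strand of the gene, from RefSeq (GRCh38.p14). Capitals mark CAGGTG, the E-box bound by SNAI and ZEB repressors, and GGGCGG, a GC box bound by SP1 and KLF factors, each searched on both strands (CACCTG and CCGCCC on the other).
DSC2 (chr18:31102372-31102671, minus strand): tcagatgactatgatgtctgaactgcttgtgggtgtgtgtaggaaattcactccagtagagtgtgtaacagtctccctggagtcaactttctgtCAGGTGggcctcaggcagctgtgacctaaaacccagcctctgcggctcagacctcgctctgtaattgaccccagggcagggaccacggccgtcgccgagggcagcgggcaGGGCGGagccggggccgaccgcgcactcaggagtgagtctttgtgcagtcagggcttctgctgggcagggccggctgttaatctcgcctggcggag
DSG3 (chr18:31447491-31447790, plus strand): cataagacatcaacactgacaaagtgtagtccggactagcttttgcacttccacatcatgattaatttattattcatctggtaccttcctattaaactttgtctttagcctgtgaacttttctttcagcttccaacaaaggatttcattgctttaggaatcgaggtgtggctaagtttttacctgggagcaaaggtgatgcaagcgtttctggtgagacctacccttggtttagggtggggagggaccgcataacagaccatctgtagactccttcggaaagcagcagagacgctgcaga
DSG2 (chr18:31497927-31498226, plus strand): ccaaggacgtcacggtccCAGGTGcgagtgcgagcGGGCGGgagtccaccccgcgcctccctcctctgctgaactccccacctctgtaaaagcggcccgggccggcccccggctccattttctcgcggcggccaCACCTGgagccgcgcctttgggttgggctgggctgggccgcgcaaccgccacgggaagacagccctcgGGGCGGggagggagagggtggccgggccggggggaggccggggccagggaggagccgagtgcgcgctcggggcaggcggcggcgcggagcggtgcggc
DSC3 (chr18:31042693-31042992, minus strand): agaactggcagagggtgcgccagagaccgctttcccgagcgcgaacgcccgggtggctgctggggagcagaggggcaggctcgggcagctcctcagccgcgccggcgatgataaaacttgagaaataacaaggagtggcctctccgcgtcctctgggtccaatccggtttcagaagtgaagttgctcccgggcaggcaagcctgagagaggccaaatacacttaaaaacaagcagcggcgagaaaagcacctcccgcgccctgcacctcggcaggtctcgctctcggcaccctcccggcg

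The 4 windows differed in base composition: the GC share was 60.7% for DSC2, 44.0% for DSG3, 76.7% for DSG2 and 63.3% for DSC3, against a median of 58.7% over 35116 promoters of the same length. DSC2 held 1 E-box, 156 bases before the start, and 1 GC box, 46 bases before it. DSG2 held 2 E-boxes, 232 and 116 bases before the start, and 2 GC boxes, 215 and 48 bases before it. The windows of DSG3 and DSC3 held neither. Of all promoters in the table, 20.59% held the E-box and 44.95% the GC box. The AP-1 motif TGANTCA, which reads the same on both strands and was present in 7.71% of promoters, and the grainyhead motif AACCNGTT (AACNGGTT on the other strand), present in 1.73%, were in none of the 4. DSC2 and DSG3 shared none of these motifs. RefSeq entries were matched for 7 of the 10 genes, 9 promoters in all, and a second promoter of DSC2 (chr18:31101211-31101510) held 2 GC boxes and no E-box.

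The armadillo proteins of the plaque showed no common direction. JUP (plakoglobin, chromosome 17, probe set 16844872), which binds both classical and desmosomal cadherins, was at log2 9.90 (array 108) and 9.32 (array 109) in siRNA-treated cells, against 9.47 in mock cells. The siRNA values lay 0.42 above and 0.15 below the mock value. PKP3 (plakophilin 3, chromosome 11, probe set 16720139), a plaque protein of most simple and stratified epithelia, was at 6.94 (array 108) and 6.75 (array 109) in siRNA-treated cells, against 6.98 in mock cells. Among the 10, PKP3 alone lay below mock on both siRNA arrays, by 0.05 and 0.24. PKP1 (plakophilin 1, chromosome 1, probe set 16675763), a plaque protein of the suprabasal layers of stratified epithelia, was listed at 3.72 on every array, below the negative control mean of each.

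DSP (desmoplakin, chromosome 6, probe set 17004612), the plakin that ties the plaque to keratin filaments, was at log2 8.21 on array 108, array 109 and the mock array, equal in every digit deposited. Values equal on all 3 arrays were common also among well-measured genes: 26.7% of 13283 genes above the negative control mean on all arrays had them. The tie therefore gives no measure of how far DSP varies between cultures, and its limma standard error of 0.20 comes from the spread of other genes.

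Counted together, 4 of the 10 genes (CDH1, CDH3, DSG3 and DSC2) were higher than mock on both siRNA arrays, where 13.1% of all genes tested were, and 1 (PKP3) was lower on both, where 16.2% were. At least 1.2-fold higher on both were 2 of 10 (DSC2 and DSG3), against 2.19% of all genes tested (2.27% of those above the negative control mean on every array), and 0 were at least 1.2-fold lower on both, against 2.50%. At least 1.5-fold higher on both was DSC2 alone, against 0.340% of genes tested. Ranked by the smaller of the 2 differences among the 2703 genes higher on both arrays, DSC2 was 50th, DSG3 177th, CDH3 1488th and CDH1 2231st. Because the 10 genes were chosen with earlier results of these arrays known, these shares are descriptions. All shares in this paragraph but the 2.27% are over all genes tested, of which 38.0% had identical values on the 3 arrays. Among genes above the negative control mean on every array, as 9 of the 10 were, 26.7% had identical values. The counts leaned on array 108. On that array 7 of 10 were above mock (background 24.4%) and 1 below (27.9%), while on array 109 the split was 4 above (24.7%) and 4 below (27.1%). On array 108 alone 5 of 10 were at least 1.2-fold higher than mock (background 4.92%), and on array 109 alone 2 were (5.75%) while 1, DSC3, was at least 1.2-fold lower (7.20%). The median log2 difference of the 10 was 0.24 on array 108 and 0 on array 109, against 0 on each over all genes tested. The siRNA arrays share the mock array, so a low or high mock value moves both differences of a gene together.

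By limma over 20582 genes, with Benjamini-Hochberg adjustment, 0 of the 10 genes and 0 genes in all passed at a false discovery rate of 5%. At an unadjusted limma p under 0.05, 228 genes were higher and 225 lower. With 2 arrays against 1, the fit has 1 residual degree of freedom, and an exact permutation of the array labels cannot give a one-sided p below 0.333. In RNA from a whole culture, a different share of cells expressing a gene and a different amount of RNA per cell cannot be told apart.

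**Figure D3:**
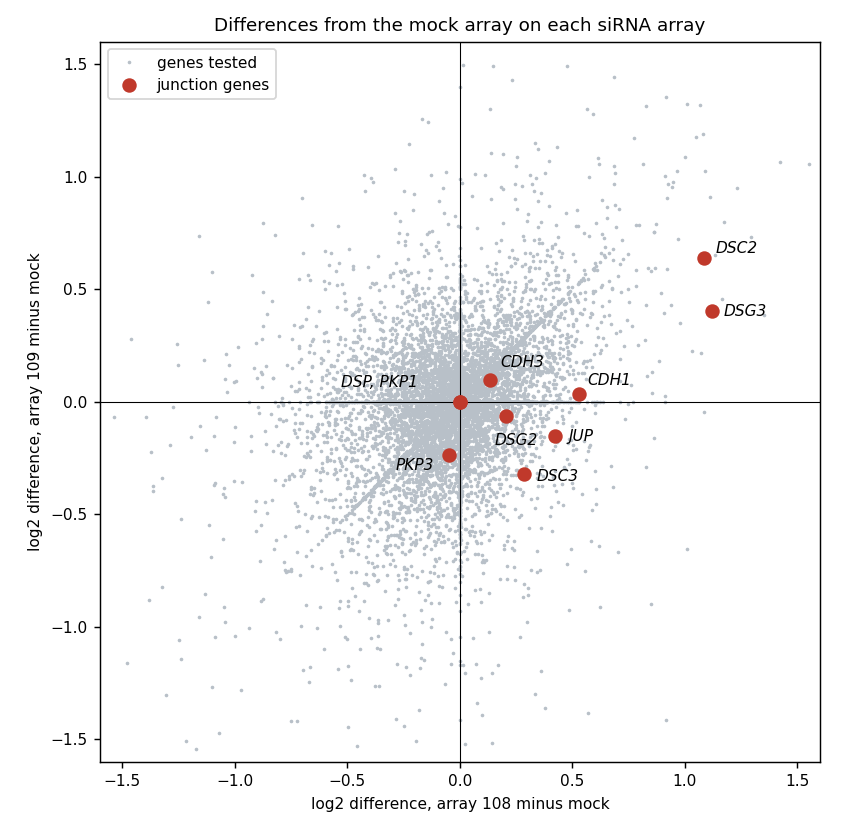
Log2 difference from the mock array on array 108 (horizontal axis) and on array 109 (vertical axis) for all genes tested (grey, 24 genes lie outside the axes) and the 10 junction genes (red). DSC2 and DSG3 stand apart in the upper right, CDH1 lies near 0 on array 109, JUP, DSG2 and DSC3 lie to the right and below 0, and DSP and PKP1 coincide at 0.

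Array 108 gave higher values than array 109 for all 8 junction genes that were not tied between them. The log2 difference between the siRNA arrays was 0.72 for DSG3, 0.61 for DSC3, 0.58 for JUP, 0.49 for CDH1, 0.45 for DSC2, 0.27 for DSG2, 0.19 for PKP3 and 0.04 for CDH3, where the second probe set went the other way. Over all genes not tied between the siRNA arrays, 51.8% were higher on array 108, and 49.0% of those above the negative control mean on every array. At least 1.2-fold higher on array 108 than on array 109 were 6 of the 10, against 6.83% of genes tested. Of those tested, 48.2% were tied between the siRNA arrays. This is 1 array against 1, with no test. The intron control sets and the negative control mean (log2 4.36 against 4.65) were lower on array 108 than on array 109. Whether that bears on the junction values was not tested. Like the junction genes, squamous epithelial markers were mostly higher on array 108 than on array 109, in 8 of 10 genes. Their summed linear value was 7315 (array 108) and 6209 (array 109) in siRNA-treated cells, against 6483 in mock cells, while that of the junction genes was 4008 and 3045, against 3005. Such sums depend most on the highest genes, among the squamous markers SFN, at log2 11.51 on array 108. They use the log2 average of a gene's probe sets, so CDH3 entered at 8.28 on array 108, where its probe sets were at 11.02 and 5.54. The part of the squamous state in the junction values was not tested.

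Other genes of the same structures, 10 further desmosome genes of which 7 were tested, lay on both sides of mock. Higher than mock on both siRNA arrays were 3 (13.1% of all genes tested) and lower 2 (16.2%). At 1.2-fold on both there were 0, against 2.19% of all genes tested higher and 2.50% lower. With 7 genes, 0 lies near those shares. PPL (periplakin), a plakin of the cornified envelope and desmosome, was at log2 6.29 (array 108) and 6.11 (array 109) in siRNA-treated cells, against 5.96 in mock cells. PKP2 (plakophilin 2), the plakophilin of simple epithelia and heart, was at 7.91 (array 108) and 8.64 (array 109) in siRNA-treated cells, against 8.72 in mock cells. PKP2 was thus lowest on array 108, the array on which 8 of the 10 junction genes exceeded array 109. CDSN and KAZN, also higher on both, lay below the negative control mean on every array. The median log2 difference of the 7 genes was 0 on array 108 and 0.01 on array 109.

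Of 22 further adherens junction genes, 20 were tested. On both siRNA arrays 5 were higher (13.1% of all genes tested) and 6 lower (16.2%). At 1.2-fold on both there were 0 either way (2.19% of all genes tested higher, 2.50% lower). NECTIN4, a nectin that is an antibody-drug target in carcinoma, was at log2 5.97 (array 108) and 5.58 (array 109) in siRNA-treated cells, against 5.39 in mock cells. AJUBA, a LIM protein that binds alpha-catenin, was at 8.42 (array 108) and 7.99 (array 109) in siRNA-treated cells, against 8.61 in mock cells. PVR, a nectin-like adhesion receptor, differed from mock by -0.24 on array 108 and -0.18 on array 109, and NECTIN3, near the negative control mean, by -0.20 on each. The catenins that bind the CDH1 and CDH3 tails are given for their role, outside the rule for named genes. CTNNB1 (beta-catenin) differed by 0.10 and 0.04, CTNND1 (p120-catenin) by 0.11 and 0.01, and CTNNA1 (alpha-catenin) was equal on all 3 arrays. The median log2 difference of the 20 genes was 0 on each siRNA array.

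The 20 genes listed as other classical and type II cadherins also hold CDH13, CDH16 and CDH17, which belong to other cadherin classes. Of the 20, 14 lay below the negative control mean on every array, among them CDH2 (N-cadherin, the cadherin of mesenchymal and neural cells) and CDH11. Of 11 tested, 1 was higher than mock on both siRNA arrays (13.1% of all genes tested) and 4 were lower (16.2%). At 1.2-fold on both there were 0 (2.19% of all genes tested higher, 2.50% lower). CDH13 (T-cadherin), a cadherin with a lipid anchor, was at log2 8.30 (array 108) and 7.93 (array 109) in siRNA-treated cells, against 8.40 in mock cells. CDH24, a type II cadherin, was at 7.18 on both siRNA arrays, against 7.43 on the mock array. CDH5, the endothelial cadherin, differed by 0.16 on each siRNA array and lay above the negative control mean on 1 array.

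The 18 genes listed as transcription factors of the epithelial state include repressors of that state and the splicing factors ESRP1 and ESRP2. Their counts therefore have no single direction for the epithelial state. Of 16 tested, 5 were higher on both siRNA arrays (13.1% of all genes tested) and 3 lower (16.2%). KLF4, a factor of differentiating epithelium, was the only one at least 1.2-fold from mock on both (2.19% of all genes tested higher, 2.50% lower). It was at log2 5.92 (array 108) and 6.53 (array 109) in siRNA-treated cells, against 5.59 in mock cells, so its larger difference was on array 109 and not on array 108. SNAI2 (Slug), a repressor of CDH1, was at 10.13 on both siRNA arrays, against 10.35 on the mock array. ESRP2, a splicing factor of epithelial cells, differed by 0.14 on each. ZEB1, ZEB2 and TWIST1, other repressors of CDH1, lay below the negative control mean on every array.

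Among 12 cadherin shedding and turnover genes, 10 were tested. On both siRNA arrays 3 were higher (13.1% of all genes tested) and 2 lower (16.2%). At 1.2-fold on both there were 0 (2.19% of all genes tested higher, 2.50% lower). ADAM17, a membrane protease that sheds surface proteins, was at log2 9.10 (array 108) and 8.87 (array 109) in siRNA-treated cells, against 8.70 in mock cells. ADAM9, a related protease, differed by 0.23 and 0.15, and ADAM15 by -0.13 and -0.16. KLK5, a kallikrein that cleaves desmosomal cadherins in shedding epidermis, was at 9.58 (array 108) and 8.64 (array 109) in siRNA-treated cells, against 9.82 in mock cells.

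Beta-catenin target genes, which bear on the signalling pool of catenins, were tested in 13 of 14 cases. On both siRNA arrays 2 were higher (13.1% of all genes tested) and 2 lower (16.2%). At 1.2-fold on both, 1 was higher (2.19% of all genes tested) and 1 lower (2.50%). MYC, a growth-promoting transcription factor, differed by 0.33 on array 108 and 0.59 on array 109, and TCF7, a partner of beta-catenin whose array 109 value lay just under its negative controls, by -0.31 and -0.40. AXIN2, the general feedback target of the pathway, was among the genes tested. It lay near the negative control mean, at log2 4.44 on array 108, array 109 and the mock array alike. The squamous epithelial markers, 10 tested, were higher on both siRNA arrays in 3 (13.1% of all genes tested) and lower in 0 (16.2%). Of these markers 1, ITGB4, was at least 1.2-fold higher on both (2.19% of all genes tested) and 0 were lower (2.50%). ITGB4, the integrin of hemidesmosomes, differed by 0.31 and 0.45, KRT17, whose array 109 value also lay under its negative controls, by 0.32 and 0.11, and EPCAM by 0.08 and 0.06. In each of these lists 0 genes passed the limma test, with Benjamini-Hochberg adjustment over all genes tested.

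**Figure D4:**
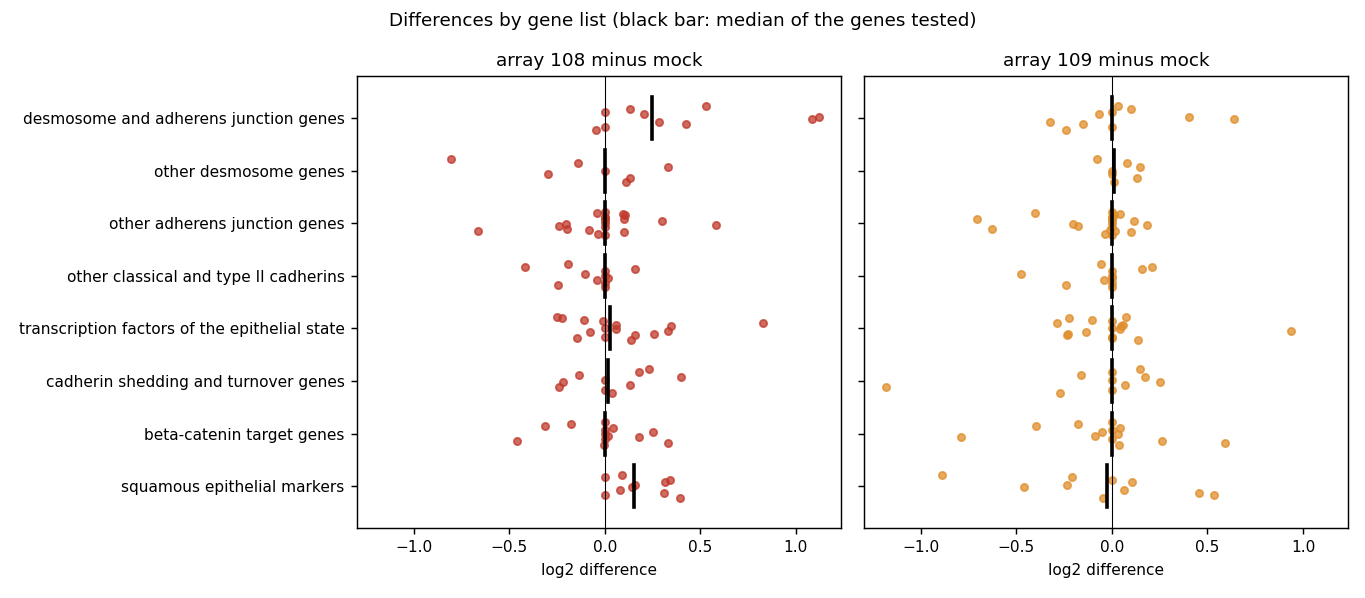
Log2 difference from the mock array (horizontal axis) on array 108 (left) and array 109 (right) for the tested genes of each list, 1 point per gene, with the median as a black bar. The junction genes have a median of 0.24 on array 108 and 0 on array 109, and the medians of the other 7 lists lie between -0.02 and 0.15.

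The genes whose pair of differences lay nearest to that of DSC2, the junction gene with the largest difference, were TRIM16L, CSF1R and TEX48. TRIM16L lay at a distance of 0.052 in the plane of the 2 log2 differences, with 1.14 on array 108 and 0.65 on array 109. CSF1R, a receptor of macrophage growth factors, lay at 0.14 and TEX48 at 0.17. This likeness covers 3 arrays and is a description.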

How the data were processed

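Per the submitters' processing notes, the authors processed the arrays with Affymetrix Expression Console and deposited log2 expression per probe set. The probe summary and genome build were not stated in the labels or headers. Per the file headers, the per-sample tables repeat these values as linear intensity (within 5.0e-05 after taking log2) and add each siRNA sample's ratio over mock, with a mark at 2-fold.

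Symbols followed Entrez identifiers, a gene's probe sets were averaged, and genes with a mean under the 30th percentile (log2 3.52) were dropped. The number of arrays limits the precision. limma 3.58.1 in R 4.3.3 compared siRNA with mock (trend, two-sided, Benjamini-Hochberg over 20582 genes). Its prior spread came from the 10664 genes untied between the siRNA arrays and was applied to every gene, and mock was taken to vary as the siRNA samples do. The fit was also run on simulated data. Its errors, for mock too, were drawn from the differences between the siRNA arrays, so it cannot check how mock varies. The 10 genes, the lists, the prior and the rules were chosen with earlier results of these data known. Named are the 10 genes, ARID1A, up to 4 genes a list with the largest difference on both siRNA arrays (the smaller one counting), and the 3 nearest to the leading junction gene. Alternatives covered scaling, filter, probe sets, value source, prior, fold and each siRNA array left out.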

Additional observations from a re-analysis of the deposited data

How the results depend on the processing

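No paired analysis was possible because the labels give no replicate numbers and the mock condition has 1 array. The 2 members higher by 1.2-fold on both siRNA arrays were as many under quantile normalization, median centring, no filter, the highest probe set and the linear values. The 4 members higher on both were as many under these settings, except quantile normalization, which gave 5. Both counts were also as many over the members above the negative control mean on every array, a setting chosen after seeing the data. At 1.5-fold 1 was left. Median centring gave 3 members lower on both in place of 1, because the tied DSP and PKP1 then moved by -0.013. Leaving out 1 siRNA array gave 4 to 7 members higher, 1 to 4 lower, 2 to 5 higher by 1.2-fold and 0 to 1 lower by 1.2-fold. With 1 siRNA array left out, the difference from mock ranged between -0.0655 and 0.204 for DSG2, -0.153 and 0.424 for JUP, and -0.321 and 0.286 for DSC3, the higher value coming from array 108. The mean difference of DSC3 was 0.018 under quantile normalization; the cause was not tested. Genes passing limma numbered 0 under these scalings, the highest probe set, the linear values and untied genes alone, 12 with no filter, and 1919 with a prior from all genes, where ties shrink the spread. The 10 junction genes passed under none of them, and DSC2 had limma adjusted p between 0.665 and 1. Leaving out an array gives 1 against 1, with no test.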

Other observations

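Several genes linked to these junctions had unlike log2 differences from mock on the 2 siRNA arrays, in size or in sign. These genes were chosen after their values were seen, fall outside the rule for named genes except PKP2 and KLK5, and have no test. PKP2 was 0.81 below mock on array 108 and 0.08 below on array 109. VEZT, a protein of the cadherin-catenin complex, differed by -0.66 on array 108 and 0.02 on array 109. GRHL1, a grainyhead factor that regulates desmosomal cadherins in mouse epidermis, differed by 0.82 on array 108 and -0.29 on array 109, and lay above the negative control mean on array 108 alone. VCL (vinculin), which joins catenins to actin, differed by 0.10 on array 108 and -0.70 on array 109. KRT5, the keratin of basal cells to which desmosomes attach, differed by 0.09 on array 108 and -0.89 on array 109, and TP63, the master factor of basal squamous cells, by 0.16 and -0.24. KLK5 differed by -0.24 and -1.18, and DKK1, a secreted WNT inhibitor and beta-catenin target, by 0.18 and -0.79.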
